A study of Mus musculus with 4 samples.

Results

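Expression of cadherin, desmosome and catenin genes was examined in mouse molar teeth. The genes were taken by name: every gene called Cdh with a number other than Cdh5, the desmogleins (Dsg), desmocollins (Dsc), plakophilins (Pkp), the alpha and delta catenins (Ctnna and Ctnnd), Dsp, Jup, Perp, Ppl and Evpl, each measured by at least 1 probe set that names that gene alone. This gave 40 genes with 79 probe sets, of 18194 genes and 45101 probe sets in all. Molars were pulled from 60 Swiss Webster pups of both sexes, aged 1 to 10 days, and combined in 1 untreated pool. Its RNA was hybridised to 4 Affymetrix Mouse Genome 430 2.0 arrays, where each transcript is read by 1 or more probe sets, groups of short probes. The 4 arrays are repeats of 1 pool, so each SD below is technical, no spread between animals or ages was measured, and the 16 control tissues named in the design were not analysed here. The pool mixes enamel epithelium, dental pulp, follicle and attached tissue across 10 days of growth, and in such bulk RNA fewer cells of a type and less RNA per cell cannot be told apart.

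Cadherins are membrane proteins that hold neighbouring cells together in the presence of calcium. In adherens junctions, classical cadherins bind catenins inside the cell, and alpha catenin links the complex to actin. In desmosomes, desmogleins and desmocollins bind plakoglobin and plakophilins, and desmoplakin ties these to keratin filaments. During enamel formation the ameloblast sheet and the stratum intermedium beneath it are joined by both kinds of junction, while odontoblasts and pulp cells are mesenchymal.

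Each gene's value is the signal of its probe set with the highest mean log2 signal. The background threshold of an array was the 95th percentile over 86 probe sets for receptors of smell, pheromones and taste, and it lay between 996 and 1295 signal units. A gene was called above background when a probe set of it exceeded the threshold on all 4 arrays. Array 4 correlated least with the others, with a mean Pearson r of 0.972 across probe sets above background against 0.975 to 0.977. When array 4 was left out, none of the 40 genes gained a call, and by the rule none could lose one. Brightness also depends on the probes, so signals of different genes are not amounts that can be ranked. All 7 measured ameloblast markers and all 7 markers of dental mesenchyme were above background. So were 6 of 6 basal epithelial, 7 of 9 oral and cornified epithelial, 6 of 6 endothelial, 4 of 5 Schwann and nerve, 4 of 5 immune and 4 of 9 skeletal muscle markers. The summed signal of the oral and cornified list ranged from 135925 to 155512 over the arrays and that of the muscle list from 48485 to 55968, and their part in the results was not tested.

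Desmosome and catenin genes were mostly above background in the molar pool, and the larger part of the cadherin family was not. Of the 40 genes, 23 (57.5%) were above background, against 51.6% of all 18194 genes, which is close to the background share. Within the set, 12 of 15 genes of desmosomes and their plakins were above background, 4 of 5 catenins, and 7 of 20 genes named Cdh. The median log2 signal was 11.74 over the 40 genes and 10.69 over all genes. The number of probe sets also matters for the call, since 35.2% of all genes with 1 probe set were above background, 60.1% of those with 2, 73.4% of those with 3 and 82.1% of those with 4 or more. Among the 40, the counts in the same order were 8 of 18, 9 of 12, 3 of 5 and 3 of 5. A one-sided limma test over all genes, with a Benjamini-Hochberg adjusted p under 0.05 as the call, gave 22 of the 40, against 51.1% of all genes. The p-values of this test rest on spread between arrays of the same pool and take each array's threshold as known.

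**Figure D1:**
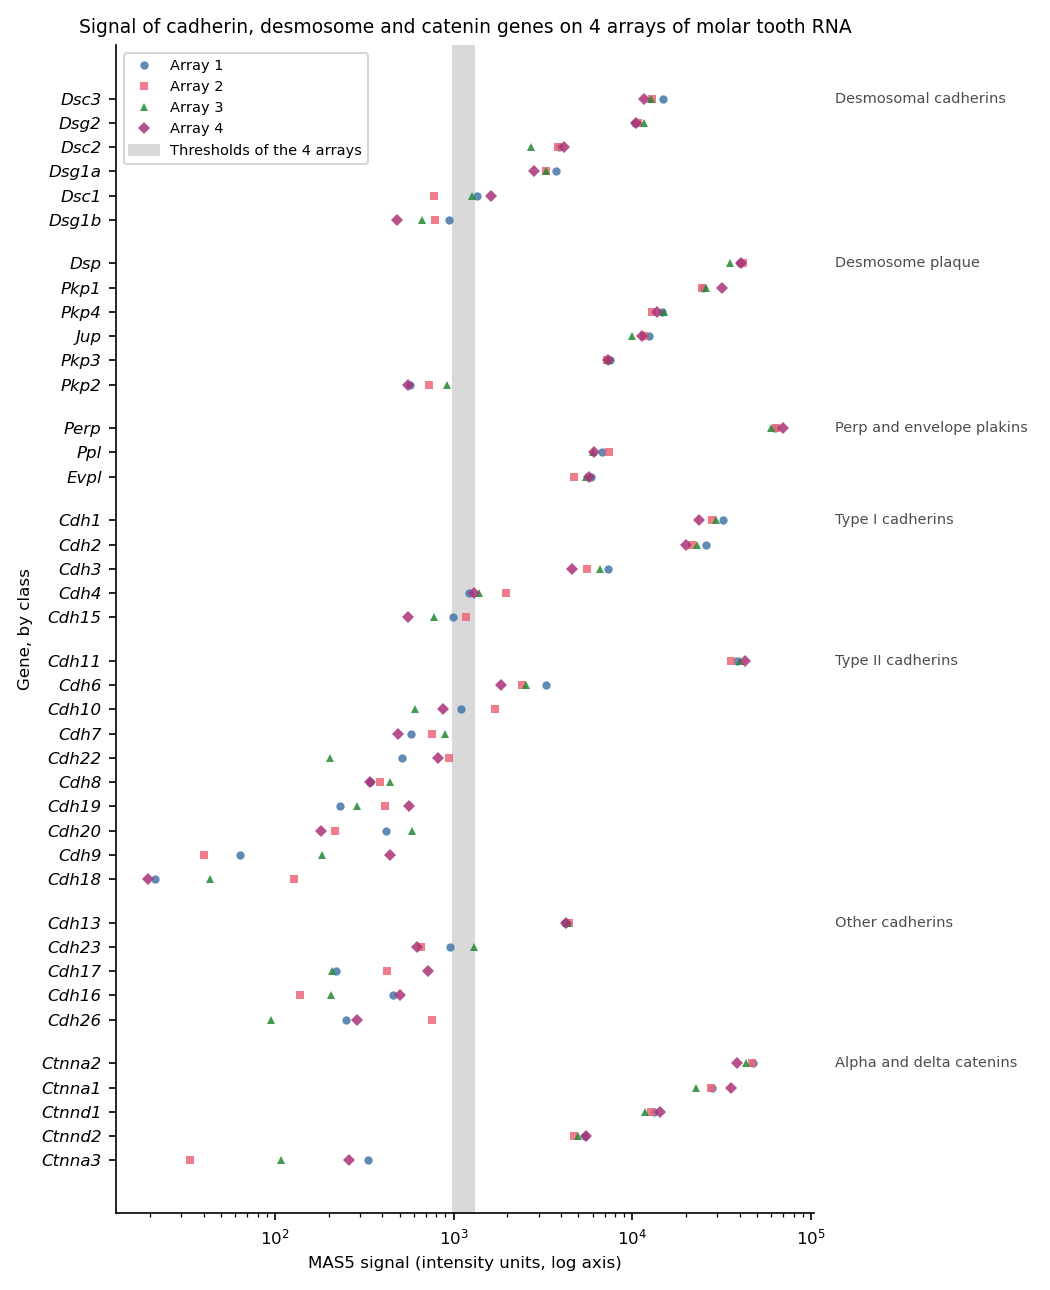
Signal on each of the 4 arrays (horizontal log axis, intensity units) of the 40 genes, by class; points are single arrays and the grey band spans the 4 array thresholds, 996 to 1295. Of the 23 genes above background, all but Cdh4 lie wholly to the right of the band. The 17 genes not above background have at least 1 array in or left of it and mostly a wider spread.

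**Figure D2:**
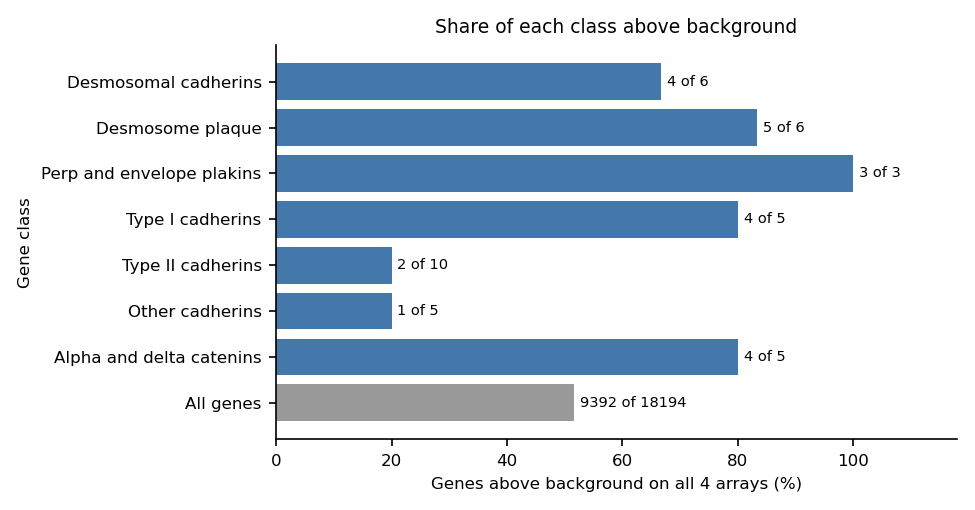
Percent of the measured genes of each class (horizontal axis) that were above background on all 4 arrays, with counts beside the bars; the grey bar is all 18194 genes. Type II cadherins (2 of 10) and other cadherins (1 of 5) stand below the 51.6% of all genes, and the other classes stand above it.

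Desmosomal cadherins, the adhesive proteins of the desmosome, were above background for 4 of 6 measured genes, with a median log2 signal of 11.74. Dsc3, a desmocollin of basal and stratified epithelium, had signals of 14913, 12930.4, 12763 and 11707 on arrays 1 to 4. Dsg2, the desmoglein of simple epithelia and heart, had 10379, 10766, 11658 and 10469.6. For both genes every array lay far over its threshold, by at least 8.27-fold for Dsg2 and 9.24-fold for Dsc3. Dsc2, the most widely distributed desmocollin, had signals of 3907, 3849, 2725 and 4137. Dsg1a, a desmoglein of upper epidermal layers, had 3730.5, 3285, 3299 and 2805. These 2 genes were also over the threshold on each array, by at least 2.1-fold and 2.21-fold. Array 3 was the low one for Dsc2.

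Dsc1 and Dsg1b were not above background. Dsc1, the desmocollin of differentiated epidermis, had signals of 1355, 779, 1276 and 1619.9 and exceeded the threshold on 2 of the 4 arrays, and a second probe set of it exceeded it on none. Dsg1b had 946, 793, 665 and 482 and exceeded it on none. Dsg1a and Dsg1b are near-identical copies of a gene that is single in humans, so their probe sets may share transcripts and the split between them is uncertain. Dsg1c, Dsg3 and Dsg4 were not analysed here. In the RefSeq gene table (GRCm38.p6, used here only for order) the desmosomal cadherins follow each other with no other protein-coding gene between them, in the order Dsc3, Dsc2, Dsc1, Dsg1c, Dsg1a, Dsg1b, Dsg4, Dsg3, Dsg2. Calls differed along this cluster: Dsc3 and Dsc2 were above background, Dsc1 was not, Dsg1a was, Dsg1b was not, and Dsg2 at the far end was.

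Plaque genes, a class named for proteins that join desmosomal cadherins to keratin, were above background for 5 of 6, with a median log2 signal of 13.62. Pkp4 was counted in this class, and among the desmosome genes, by its name. Dsp (desmoplakin, the link to keratin filaments) had signals of 40294, 41503, 35369 and 40384. Pkp1, a plakophilin of stratified epithelium whose loss in humans causes skin fragility with ectodermal dysplasia, had 24845, 24619, 26024 and 31689. Both stood far over background, with a mean of 39387 ± 2735 for Dsp and 26794 ± 3321 for Pkp1 (SD, n = 4). Array 4 was the high one for Pkp1, and the 3 other arrays of that gene lay within a narrow range. Pkp4, a relative of p120 catenin found at junctions and during cell division, had signals of 14670.3, 12971, 15000.2 and 13681. Jup (plakoglobin, shared by desmosomes and adherens junctions) had 12344, 11649, 9962 and 11328. Pkp3, a plakophilin of most desmosome-bearing epithelia, had 7516, 7256, 7368 and 7355. By the chosen probe sets Pkp3 varied least of all 40 genes, with an SD of 0.021 on the log2 scale. Its second probe set, also above background, varied more, with 3687, 3775, 4735 and 2876. The single probe set of Jup and the chosen one of Dsp carry a suffix that marks sequence shared between transcripts. The other probe sets of Dsp carry none and were above background, with means of 30606 and 7559.

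Pkp2 was the plaque gene not above background. This plakophilin is the one of heart muscle and simple epithelium. It had signals of 570.4, 725, 913 and 557, under the threshold on each array, and its 3 other probe sets were under it on each array as well.

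Perp and both envelope plakins were above background, 3 of 3. Perp, a tetraspan membrane protein of desmosomes whose loss in mice is known to loosen the ameloblast layer from the stratum intermedium and to disturb enamel, had signals of 63052, 64086, 59874 and 69415. Every array was at least 46.2-fold over its threshold. Ppl (periplakin) and Evpl (envoplakin) are plakins that join desmosomes to the cornified envelope of squamous cells. Ppl had 6769, 7416, 6023 and 6118 and Evpl had 5850.4, 4715, 5536 and 5702. Both passed on each array, by at least 4.65-fold for Ppl and 4.28-fold for Evpl. The single probe set of Ppl carries the suffix _a_at, which marks transcripts of the same gene. Oral and cornified epithelial markers were present in the pool, as given above, and a share of these plakin signals from gum epithelium on the pulled teeth was not tested.

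Classical type I cadherins were above background for 4 of 5 genes, with a median log2 signal of 12.54. Cdh1 (E-cadherin, of epithelial adherens junctions) had signals of 32153, 27911, 29261 and 23751. Cdh2 (N-cadherin, of nerve, muscle and mesenchyme) had 25750.0, 21679, 23196 and 19990.1. Cdh1 and Cdh2 were thus both measured far over background in the same pool, by at least 18.8-fold for Cdh1 and 15.8-fold for Cdh2. Which cells of the pool held each transcript was not tested. Cdh3 (P-cadherin, of basal epithelial cells) had signals of 7299.8, 5578, 6633 and 4599. Its array values spanned 1.59-fold, with array 4 low, and each passed its threshold, by at least 3.63-fold. Cdh3 and Cdh1 stand next to each other in the gene table, with no protein-coding gene between them.

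Cdh4 and Cdh15 lay near the threshold, with Cdh4 above background and Cdh15 not. Cdh4 (R-cadherin, of retina and brain) had signals of 1228, 1958, 1392 and 1294 and passed on all 4 arrays, by 1.02-fold on the nearest one. The call of Cdh4 rests on 1 of 3 probe sets. It was not kept by a one-sided limma test over all genes, with a Benjamini-Hochberg adjusted p of 0.139, nor at the 99th percentile. Cdh15 (M-cadherin, of muscle satellite cells) had 993, 1173, 781 and 555 and passed on 1 array. Of the 9 skeletal muscle markers, Acta1, Myl1, Mylpf and Ckm were above background and Chrna1, Des, Myf5, Myog and Pax7 were not.

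Type II cadherins were above background for 2 of 10 measured genes, with a median log2 signal of 8.80, under the 10.69 of all genes. Cdh11 (OB-cadherin, of osteoblasts and other mesenchyme) had signals of 38536, 35723, 39925 and 42595. Cdh6 (K-cadherin, of kidney and nervous system) had 3282, 2408, 2544 and 1852. Both passed on every array, and array 4 was the lowest for Cdh6, at 1.46-fold its threshold. Cdh8, the neighbour of Cdh11 in the gene table, had 339 to 442 and passed on no array.

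The other 8 type II genes, which are known mainly from the nervous system, were not above background. Cdh10 had signals of 1101, 1713, 609 and 879 and exceeded the threshold on 2 arrays. Cdh7 had 579.7, 754, 892 and 487 and exceeded it on none. The remaining 6, Cdh8, Cdh9, Cdh18, Cdh19, Cdh20 and Cdh22, exceeded it on no array, with mean signals between 53.2 and 619. Cdh19, which marks Schwann cell precursors, had 233, 415, 287 and 562, while 4 of 5 Schwann and nerve markers, Sox10 among them at 1968 ± 530.4 (SD, n = 4), were above background. A signal under the threshold does not show that a gene was not expressed. Cdh12 and Cdh24 were not analysed here.

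Of the 5 cadherins of unusual structure, Cdh13 was above background. Cdh13 (T-cadherin), which lacks a cytoplasmic tail and is held by a lipid anchor, had signals of 4202, 4441, 4387 and 4248. Its arrays were close together, with an SD of 0.038 on the log2 scale, but its call rests on 1 of 4 probe sets. Cdh23, of the tip links of inner ear hair cells, had 958, 656, 1303 and 626 and passed on array 3. Cdh16 of kidney, Cdh17 of gut and Cdh26 passed on no array, with mean signals between 326 and 394.

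Catenins of the alpha and delta families, which are part of classical cadherin complexes, were above background for 4 of 5, with a median log2 signal of 13.66. Ctnna1 (alpha-E catenin, the general link from cadherins to actin) had signals of 28046, 27458, 22817 and 35819.6. Ctnna2 (alpha-N catenin), known chiefly from neurons, had 47359, 46573, 43521 and 38544. Both were far over background, with Ctnna2 at 43999 ± 3996 (SD, n = 4) and at least 30.4-fold over the threshold on every array. The 1 probe set of Ctnna2 carries the suffix _a_at, which marks transcripts of the same gene, so its call has no second probe set beside it, and binding of other transcripts to this probe set was not tested. Ctnna1 was highest on array 4 by this probe set and lowest on it by its other probe set above background, with 18354 on array 4 and 25890.2 on array 1. Ctnna3 (alpha-T catenin, of heart and testis) had 332, 33.6, 108 and 260.3 and passed on no array.

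Ctnnd1 (p120 catenin, which keeps cadherins at the cell surface) had signals of 13319.7, 12764, 11744 and 14240.1. Ctnnd2 (delta catenin), known mainly from neurons, had 5442, 4709, 4950.4 and 5483. Both passed on every array, by at least 9.07-fold for Ctnnd1 and 3.82-fold for Ctnnd2, and both probe sets of Ctnnd2 were above background. The chosen probe set of Ctnnd1 carries the same suffix as that of Jup. With probe sets free of suffixes the mean log2 ratio of Ctnnd1 to the threshold was 2.95, against 3.49 as reported.

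Several genes had more than 1 probe set, and the calls of these were set side by side. Of the 22 such genes, 8 had all their probe sets above background, 7 had some and 7 had none. The 8 were Dsc2, Dsc3, Dsp, Pkp3, Pkp4, Cdh2, Cdh11 and Ctnnd2. The 2 probe sets of Dsc2 had 3654 ± 632 and 3534 ± 376, and those of Cdh11 had 39195 ± 2862 and 3768 ± 883 (SD, n = 4 each), levels that also depend on the probes. Dsg2 was above background by 4 of 6 probe sets, whose means over all 6 ran from 805 to 10818. Ctnna1 passed by 2 of 4 and Ctnnd1 by 2 of 3, and the probe sets of these 2 genes that failed passed on no array. The calls of Cdh3, Cdh4, Cdh6 and Cdh13 rest on 1 probe set of several. The second probe set of Cdh3 passed on 2 arrays, that of Cdh6 on 1. Over the 79 probe sets, 37 were above background, against 42.5% of all probe sets that name 1 gene.

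**Figure D3:**
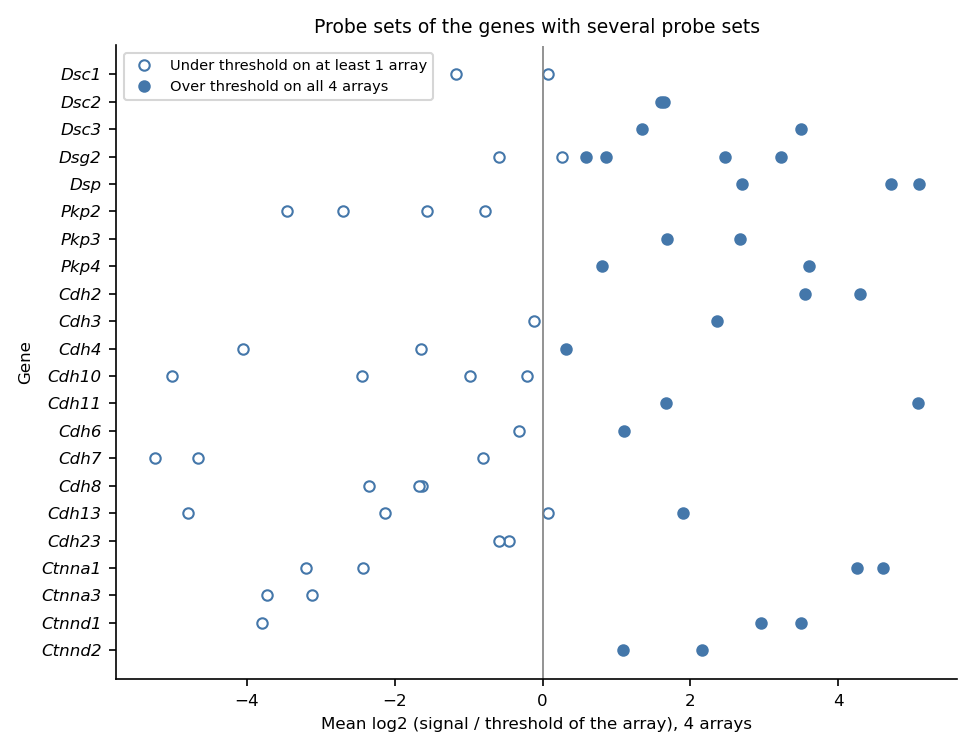
Mean log2 ratio of signal to the array's threshold (horizontal axis, 4 arrays) for each probe set of the 22 genes with several probe sets; filled circles passed on all 4 arrays. Dsp, Cdh2 and Cdh11 have every probe set above 0, while Cdh13 and Ctnna1 have probe sets on both sides of it.

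The margin over background was set beside that of all genes. The chosen probe set was at least 2-fold over the threshold on all 4 arrays for 21 of the 40 genes (52.5%), against 38.2% of all genes. It was at least 4-fold over it for 16 (40.0%), against 22.6%, and at least 8-fold for 12 (30.0%), against 11.0%. Those 12 were Cdh1, Cdh2, Cdh11, Ctnna1, Ctnna2, Ctnnd1, Dsc3, Dsg2, Dsp, Perp, Pkp1 and Pkp4. They hold 3 of the 7 Cdh genes above background, 3 of the 4 catenins and 6 of the 12 desmosome genes. The set was chosen by gene family, and these shares describe it without a test.

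Spread between arrays depended on brightness. Genes of the set above background had a median SD of 0.14 on the log2 scale, or 1.10-fold, against 0.16 for all genes above background. Those not above background had a median SD of 0.62, equal at this precision to the 0.62 of all such genes. Among genes of the set above background the SD of the chosen probe set ran from 0.021 for Pkp3 to 0.34 for Cdh6. For Cdh9 and Cdh18 it was 1.55 and 1.26, so their arrays differ several-fold and only the side of the threshold can be read.

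**Figure D4:**
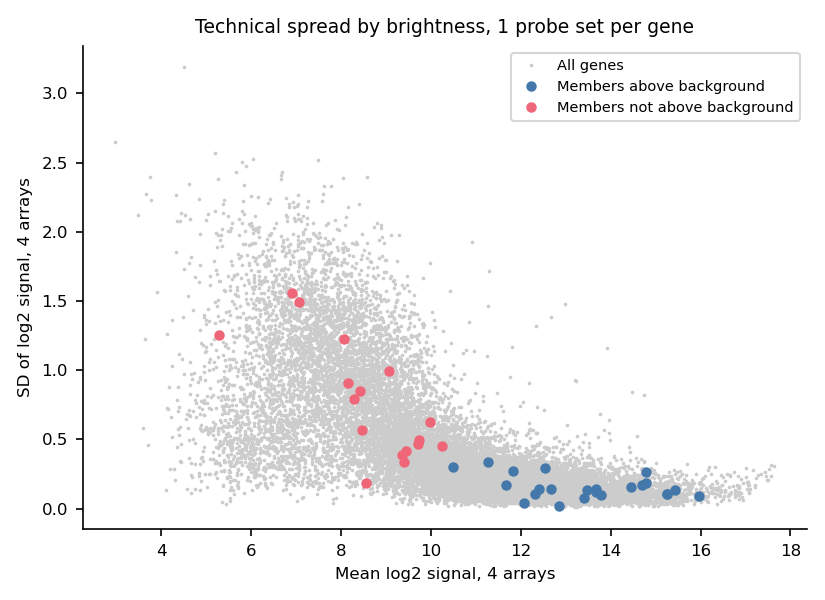
SD of log2 signal over the 4 arrays (vertical axis) against mean log2 signal (horizontal axis), 1 probe set per gene; grey points are all 18194 genes. The 23 genes above background (blue) have SDs up to 0.34, and the 17 not above background (red) have SDs from 0.18 to 1.55.

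Promoter sequence was compared as a property that neither the choice of genes nor the arrays used. RefSeq promoter windows (GRCm38.p6, 250 bases before to 50 after a gene's start) were found for 18 of the 40 genes, and the dinucleotide CG, which reads the same on both strands, was counted in each. The median was 28 CG for the 7 genes above background and 12 for the 11 not above background, taking the window with most CG where a gene has several. The 7 were Cdh6 (8 CG), Ctnna2, Ctnnd1, Ctnnd2, Dsp, Jup and Pkp4, and the 11 were Ctnna3 and otherwise Cdh genes. Call and gene class thus go together among these windows and cannot be told apart. Cdh1, Cdh2, Cdh11 and Perp, all above background, have no window. Over all genes with a window the medians were 23 for the 7645 above background and 9 for the 6808 not above background, so the same order holds there. Of all 32851 windows, 94.6% hold at least 1 CG, 48.6% at least 8 and 4.95% at least 38. The windows of 2 alpha catenins and 2 neighbouring type II cadherins are shown because the calls within each pair are opposite. Ctnna3 has 3 windows, with 39, 7 and 2 CG, of which the one with most CG is printed. CG is in capitals. The windows are Ctnna2 (chr6:77979618-77979917, minus strand, 38 CG, above background), Ctnna3 (chr10:63429848-63430147, plus strand, 39 CG, not above), Cdh6 (chr15:13173626-13173925, minus strand, 8 CG, above) and Cdh9 (chr15:16728665-16728964, plus strand, 8 CG, not above).
Ctnna2: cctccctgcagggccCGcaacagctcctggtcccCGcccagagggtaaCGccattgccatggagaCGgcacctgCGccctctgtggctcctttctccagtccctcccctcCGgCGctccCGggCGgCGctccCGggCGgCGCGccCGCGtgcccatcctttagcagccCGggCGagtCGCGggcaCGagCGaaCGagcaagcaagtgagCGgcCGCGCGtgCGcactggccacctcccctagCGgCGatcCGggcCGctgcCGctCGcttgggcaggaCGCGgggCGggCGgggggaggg
Ctnna3: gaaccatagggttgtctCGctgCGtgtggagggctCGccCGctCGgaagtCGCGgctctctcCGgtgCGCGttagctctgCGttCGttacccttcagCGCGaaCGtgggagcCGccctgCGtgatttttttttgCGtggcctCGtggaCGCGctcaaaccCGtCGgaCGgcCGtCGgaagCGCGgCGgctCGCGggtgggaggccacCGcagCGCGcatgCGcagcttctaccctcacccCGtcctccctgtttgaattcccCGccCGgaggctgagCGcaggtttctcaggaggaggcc
Cdh6: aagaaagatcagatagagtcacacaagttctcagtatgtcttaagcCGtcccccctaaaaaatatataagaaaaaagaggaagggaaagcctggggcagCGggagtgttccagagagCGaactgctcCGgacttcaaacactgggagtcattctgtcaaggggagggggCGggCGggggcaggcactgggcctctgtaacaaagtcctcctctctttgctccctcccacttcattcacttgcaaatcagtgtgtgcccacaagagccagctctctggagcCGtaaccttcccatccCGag
Cdh9: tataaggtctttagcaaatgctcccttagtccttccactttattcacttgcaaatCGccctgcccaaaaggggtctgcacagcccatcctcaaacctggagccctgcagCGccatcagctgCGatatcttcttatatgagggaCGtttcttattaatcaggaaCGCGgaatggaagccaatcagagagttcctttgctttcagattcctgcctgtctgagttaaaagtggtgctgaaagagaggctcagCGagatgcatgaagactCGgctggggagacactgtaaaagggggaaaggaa
Cdh6 and Cdh9 have the same CG count and opposite calls. For the alpha catenins this closeness holds for the printed window of Ctnna3 and not for its windows with 7 and 2 CG. A count of CG is a description of the window only.

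Other genes of cell adhesion were counted for context. Of 20 adherens junction partners (Ctnnb1, vinculin, nectins, alpha actinins and others), 18 were above background, against 51.6% of all genes. Among 20 measured protocadherins, Fat, Dachsous, Celsr and calsyntenin genes, 11 were. All 6 measured genes of hemidesmosomes and other plakins and all 7 genes for repressors of Cdh1 transcription (the Snail, Zeb, Twist and E protein genes) were above background in the same pool as Cdh1. Cell types were not separated, so these counts do not say that the same cells held both.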

How the data were processed

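RNA of 1 pool of molars was measured on 4 arrays, which form 1 group of technical replicates. The deposited values are signal intensity per probe set on a linear scale, made by the authors with MAS5 per the submitters' processing notes; the version and settings of MAS5 are not stated. Each array's mean was 2500 once 2% of probe sets were trimmed at either end, so the arrays had been scaled alike. Because MAS5 corrects with mismatch probes, low signals are noisy. Arrays have no read depth, and their number limits the precision.

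Of 45101 probe sets, 34958 name 1 gene in the platform annotation and 932 name several and were not used. All 40 gene IDs matched the RefSeq table (GRCm38.p6) with the same symbol. No between-group test was possible. The alternative call was limma 3.58.1 (R 4.3.3) with a mean-variance trend, one-sided on log2(signal / threshold), with Benjamini-Hochberg adjustment over 18194 genes and a threshold of 0.05. Both calls were run on simulated data, whose background values were resampled from the receptor probe sets that set the threshold. The share of false calls there was thus largely set in advance and does not measure the error of the calls. Other steps used Python 3.11.15 with pandas 2.3.3 and numpy 2.4.6. Alternatives were other thresholds and background probe sets, 3 of 4 arrays, quantile normalisation, probe sets without shared-sequence suffixes, other gene summaries, and leaving out each array.

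The genes, classes and lists were chosen with earlier results of these data known. Array values are given for up to 5 genes above background per class and for genes whose mean log2 ratio to the threshold lies within 1 of 0. The array values of Cdh8, Cdh19 and Ctnna3, the markers named and the promoter windows printed were chosen after values were seen.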

Additional observations from a re-analysis of the deposited data

How the results depend on the processing

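Of 117 counts recomputed under 13 alternatives (the 40 genes, 7 classes and all genes), 115 stayed within 1.5 times the reported count. The exceptions were the other cadherins, where 1 of 5 was above background as reported, 2 at the 75th percentile of the receptor probe sets and 0 with the median of a gene's probe sets. Leaving out an array or asking for 3 of 4 arrays can only add calls, so part of this tally was fixed in advance. In small classes the limit also passes real changes. Type I cadherins went from 4 to 3 at the 99th percentile and type II from 2 to 3 at the 75th. The total was 23 of 40 as reported, against 51.6% of all genes. It was 22 at the 99th percentile (all genes 48.2%), with testis and retina probe sets as background (43.3%) or with limma (51.1%), 28 at the 75th percentile (65.3%), 21 with the median probe set (42.7%), and 20 of 36 with probe sets free of suffixes (46.6%), which leave out Jup, Ppl, Ctnna2 and Cdh23. It was 23 without each array in turn. The call asks for every array kept, so leaving 1 out can add calls and cannot remove any. Over all genes, leaving out an array gave 9427 to 9850. By call, 21 genes were above background and 12 were not under every alternative that could be computed, and 7 changed under at least 1. Cdh4 lost its call at the 99th percentile and under limma. On the log2 scale its ratio to the threshold was -0.32 with the testis and retina background and -1.64 with the median probe set, and that of Cdh13 was -0.61 with the median probe set. At the 75th percentile Cdh10, Cdh15, Cdh23, Dsc1 and Pkp2 were gained. No paired analysis was possible because the arrays form 1 group. The signal over background limits what can be read of the 17 genes not above it.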

Other observations

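Order among the arrays was alike for part of the set. Of the 23 genes above background, 7 (30.4%) were highest on array 1 and lowest on array 4, against 947 of 9392 (10.1%) of all genes above background, a pattern chosen after the values were seen. The 7 were Cdh1, Cdh2, Cdh3, Cdh6, Dsc3, Dsg1a and Ctnna2, and their highest array exceeded their lowest by 1.23-fold (Ctnna2) to 1.77-fold (Cdh6). By their chosen probe sets, Dsc2, Pkp1, Perp, Cdh11, Ctnna1, Ctnnd1 and Ctnnd2 were highest on array 4. The order depends on the probe set: the second probe sets above background of Cdh11 and Ctnna1 were lowest on array 4, that of Ctnnd1 was highest on array 1, that of Dsc2 on array 3, and that of Dsc3 was lowest on array 3. Those of Cdh2 and Ctnnd2 kept array 4 as lowest and as highest. All arrays carry RNA of the same pool, so these are technical differences. Leaving out array 4 could not remove any of the 23 calls, because each gene had passed on every array. A gap test on the 40 sets of 4 values found 0 with an array set apart, while chance alone would give about 1 in 20, or 2 of 40.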
